A study of Arabidopsis thaliana with 30 samples.

Results

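The genes described here are the Arabidopsis thaliana genes for 20 proteins of the large (60S) subunit of the cytosolic ribosome, L3 to L15 (with L7a, L10a and L13a) and L18, together with the stalk proteins P0, P1 and P2. They were chosen by a list of 58 gene identifiers, and the rule of choice used no measured value. Earlier results of these data were known when the list was made. Of the 58 listed genes, 57 were in at least 1 of the 9 deposited tables, which hold 24721 genes between them, and 56 were in all 9 tables. Every one of the 20 proteins had at least 2 listed genes, so that paralogs, separate genes coding for the same protein, could be set against each other. The L18 gene AT2G47570 was in none of the tables used here, and the L13 gene AT3G48960 was in a single table.

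Transcripts were measured by RNA sequencing in whole seedlings, 10 days old, of 5 genotypes. Wild type Col-0 (Col) was the reference, and lines 2OX, 4OX and 6OX each overexpress a mitochondrial calcium uniporter gene, MCU2, MCU4 or MCU6, as a fusion with yellow fluorescent protein driven by a constitutive promoter. The sextuple line is a knockdown of the MCU family made by crossing mutants, in which residual transcripts remain. All seedlings were moved from plates to liquid medium and received 50 µM antimycin A (AA), which blocks electron transport in mitochondria, or the solvent DMSO alone (CK), for 5 h according to the sample labels (the time in the paper is shorter). Each of the 10 groups had 3 libraries, called biological replicates by the study. Each line was taken as a single line, so line and insertion cannot be told apart. The labels write Sextuple1 for the CK libraries and Sextuple for the AA libraries, and do not say whether these are the same line.

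The headings of the tables disagree, and the direction of every AA comparison rests on them. The AA tables, of which there are 5, head 15 columns AA, and each of those 15 held the same reads as a column headed CK in a line table. The line comparisons therefore used libraries that the line tables head CK and the AA tables head AA. The AA comparisons are given by the headings of the AA tables, AA against CK, and reading them by the line tables would reverse each sign. AOX1A (AT3G22370), the alternative oxidase gene known to be induced by AA, was lower in the libraries the AA tables head AA, with a mean of 8222 normalised counts against 15905 in wild type. That is a log2 fold change of -0.97, and the overexpressors 2OX, 4OX and 6OX gave -1.83, -1.56 and -1.71 and sextuple -1.61, with no overlap between the 3 and 3 libraries in any table. This marker thus went against the headings of the AA tables, and libraries are called AA-headed or CK-headed below, always by the AA tables.

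The large subunit of the ribosome carries the peptidyl transferase centre, where amino acids are joined, and the tunnel through which the new protein leaves. Plants keep several active genes for nearly every ribosomal protein, and subunits built with different paralogs are thought to coexist in a cell. L3, L4 and L8 reach into the core of the subunit, L5 and L11 bind the 5S ribosomal RNA, and P0 carries pairs of the acidic proteins P1 and P2 on a lateral stalk that recruits elongation factors. In plants the promoters of ribosomal protein genes are known for 2 short motifs, site II and the telo-box, and their transcripts usually rise and fall together with growth.

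The promoters showed how far the listed genes share these motifs and where paralogs part. In windows of 300 bases, 250 before and 50 after each annotated start, read from the TAIR10.1 sequence of RefSeq, site II (TGGGCC or TGGGCT, either strand) was in 49 of 58 windows (84.5%), against 21.7% of the windows of 27443 genes. At least 2 site II matches were in 72.4% of the listed genes and in 13.7% of all genes. The telo-box (AAACCCTA, either strand) was in 31 of the 58 (53.4%) and in 6.2% of all genes. Windows with both motifs were 46.6% of those of the listed genes and 2.2% of all. The 4 windows printed here belong to the genes the results turn on, the L10 pair RPL10A and RPL10C, the P0 gene AT3G11250 and the P2 gene RPP2D, with site II and telo-box matches in capitals. All 4 genes lie on the plus strand, in RPL10A at chr1:4887864-4888163, in RPL10C at chr1:24838840-24839139, in AT3G11250 at chr3:3521079-3521378 and in RPP2D at chr3:16163459-16163758.
RPL10A: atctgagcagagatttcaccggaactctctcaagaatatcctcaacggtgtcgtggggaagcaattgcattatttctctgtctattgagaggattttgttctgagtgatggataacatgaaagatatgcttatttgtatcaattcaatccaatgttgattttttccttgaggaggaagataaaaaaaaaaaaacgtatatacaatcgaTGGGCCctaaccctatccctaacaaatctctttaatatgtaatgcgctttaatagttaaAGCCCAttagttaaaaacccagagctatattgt
RPL10C: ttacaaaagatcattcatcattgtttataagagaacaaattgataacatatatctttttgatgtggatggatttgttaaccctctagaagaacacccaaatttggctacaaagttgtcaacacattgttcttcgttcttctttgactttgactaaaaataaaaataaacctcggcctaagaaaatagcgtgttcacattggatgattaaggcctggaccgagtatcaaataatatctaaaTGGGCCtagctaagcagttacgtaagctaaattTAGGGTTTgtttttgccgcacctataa
AT3G11250: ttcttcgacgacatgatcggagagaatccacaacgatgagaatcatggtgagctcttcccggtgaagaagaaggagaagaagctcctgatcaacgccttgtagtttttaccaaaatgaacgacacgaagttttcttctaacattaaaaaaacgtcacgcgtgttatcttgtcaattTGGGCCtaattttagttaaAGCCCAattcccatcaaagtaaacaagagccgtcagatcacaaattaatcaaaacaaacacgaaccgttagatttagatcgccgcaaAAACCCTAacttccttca
RPP2D: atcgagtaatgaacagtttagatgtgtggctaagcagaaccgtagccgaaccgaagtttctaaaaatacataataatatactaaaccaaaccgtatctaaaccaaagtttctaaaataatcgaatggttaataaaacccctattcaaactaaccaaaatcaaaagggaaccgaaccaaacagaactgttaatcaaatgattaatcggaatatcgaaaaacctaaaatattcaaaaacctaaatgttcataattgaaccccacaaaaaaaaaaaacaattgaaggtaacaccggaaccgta
RPL10A had 2 site II matches and no telo-box, RPL10C 1 of each, and AT3G11250 2 site II matches and 1 telo-box. RPP2D had neither, as had RPP2A, RPL7D, the L6 gene AT1G74050 and AT3G48960. A match is a match of letters only and was not tested as a binding site.

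Read depth ran from 2.56 to 39.1 M reads per library (M, 1e6), with a median of 29.7. The library with 2.56 was replicate 1 of the AA-headed 2OX group, which also serves the 2OX line comparison. The CK-headed Col libraries were shallower than the AA-headed ones, 11.8 to 21.5 against 32.4 to 34.6 M reads, and nuclear ribosomal RNA took 1.47 to 6.24% of their reads against 0.0531 to 0.0678%. Of all reads, 1.49 to 2.72% fell on the listed genes. The CK-headed sextuple libraries stood apart from each other, with a mean log2 value over the listed genes of 12.03, 12.51 and 12.97 in replicates 1, 2 and 3 (SD 0.47), against an SD of 0.057 to 0.185 in the other groups. The overexpressed genes were high in their own lines, MCU2 (AT1G57610) with a mean of 6829 normalised counts in 2OX against 389 in Col, MCU4 (AT4G36820) with 5032 against 3.25 in 4OX, and MCU6 (AT5G66650) with 956 against 298 in 6OX. In the sextuple line MCU6 had 98.8 against 306, and MCU2 did not fall, 679.9 against 621.

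Levels were compared between genes as scaled reads per kb of exon, with all 30 libraries scaled together. RPL14B (AT4G27090) was the most abundant of the listed transcripts, with a median of 33903 and a range of 27177 to 54255. It was followed by RPL10A (AT1G14320) at 22339.8, the L15 gene AT4G16720 at 19951, RPL8A (AT2G18020) at 17405 and the P1 gene AT5G47700 at 16353, whose ranges over the libraries overlapped. At the other end were the P0 gene AT2G40010 at 182, the P2 gene AT3G28500 at 23.2 and the L8 gene AT3G51190 at 5.82.

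Paralogs of a protein differed widely in level in some families. In 8 of the 12 families with more than 2 measured genes the leading gene held over 50% of the family's reads per kb, and in 15 of all 20 it was the same gene in all 30 libraries. RPL3A held a median of 93.4% of L3, RPP0B 93.2% of P0, RPL14B 83.6% of L14 and RPL8A 79.0% of L8. Other families were nearly level, such as L4, where RPL4D held 52.2% and RPL4A 47.8%, and L10a, where RPL10AA held 44.6% and RPL10AB 43.9%. Where coding sequences are near identical the division of reads between paralogs is uncertain, most of all for RPL9C and PGY2 (99.1% identical), then the tandem genes RPL6B and AT1G74050 (94.2%), RPL5A and RPL5B (92.7%) and the P1 pair AT1G01100 and AT5G47700 (92.4%). The L10 genes were 87.3 to 88.0% identical and RPP0B and AT3G11250 88.3%. Another annotated gene overlapped 15 of the 58, and the use of strand in counting is not stated, so values of genes such as AT4G13170, overlapped over 1376 bases by a gene on the opposite strand, may hold its reads too. RPL10A, RPL10C and AT3G11250 had no such overlap, while a gene on the opposite strand overlaps 63 bases of RPP2D.

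**Figure D1:**
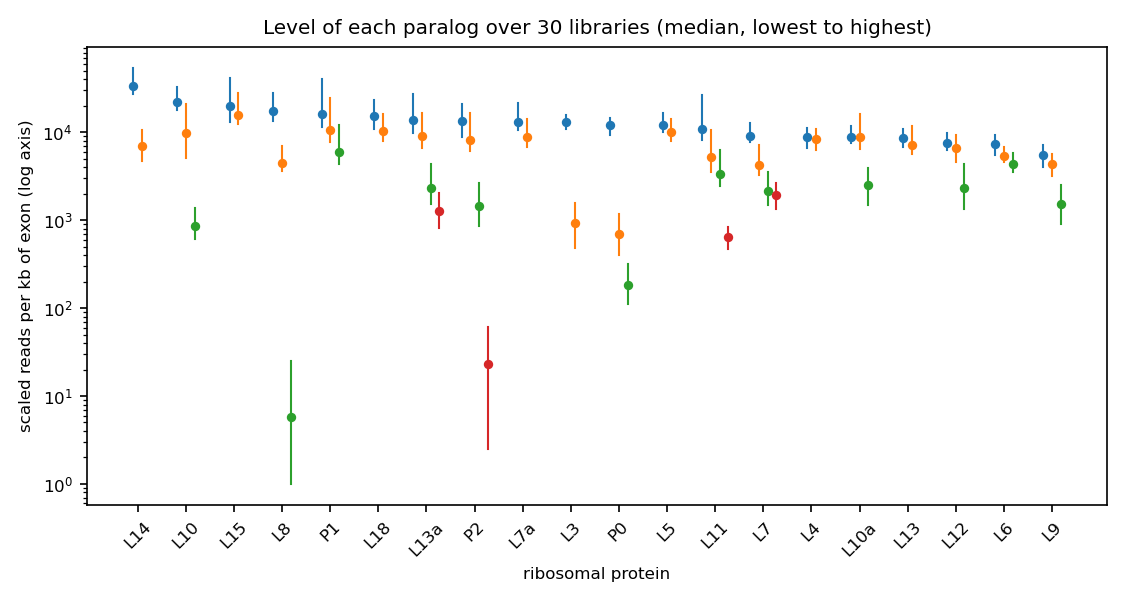
Level of each paralog (y axis, scaled reads per kb of exon, log axis) by protein (x axis), as the median (point) with the lowest and highest of 30 libraries (line), coloured by rank within the protein. RPL14B leads at 33903, and the lowest paralogs of L8 and P2 sit at 5.82 and 23.2. A library at 0, at the lower end of the L8 line, is drawn at 1.

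Against Col, the listed genes lay higher together in the line tables. This shared shift was described by its median and not tested, and in 6OX no single gene passed the test of genes. The question was whether raising or lowering MCU transcripts goes with a change in these genes, and how evenly the paralogs share it. On log2(value + 1), the median change over 56 tested genes was 0.42, 0.41 and 0.23 in the overexpressors 2OX, 4OX and 6OX and 0.46 in sextuple, while the medians over all genes tested were between -0.04 and 0.00. All 56 had a value above 0 in 2OX, 4OX and sextuple and 53 of 56 in 6OX, beside 46.7%, 50% and 48.8% and 48.9% of all genes. The 3 line libraries lay above the 3 Col libraries without overlap for 46, 54 and 21 genes in the overexpressors 2OX, 4OX and 6OX and for 50 in sextuple, where 16.3%, 18.5%, 11.4% and 13.7% of all genes did so. The 4 comparisons use the same 3 Col libraries and are not independent of each other. In whole seedlings more cells rich in ribosomes and more transcript per cell cannot be told apart. Leaving out 6OX replicate 2 brought the 6OX median to 0.14, and no other library moved a line median by over 1.5 times.

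**Figure D2:**
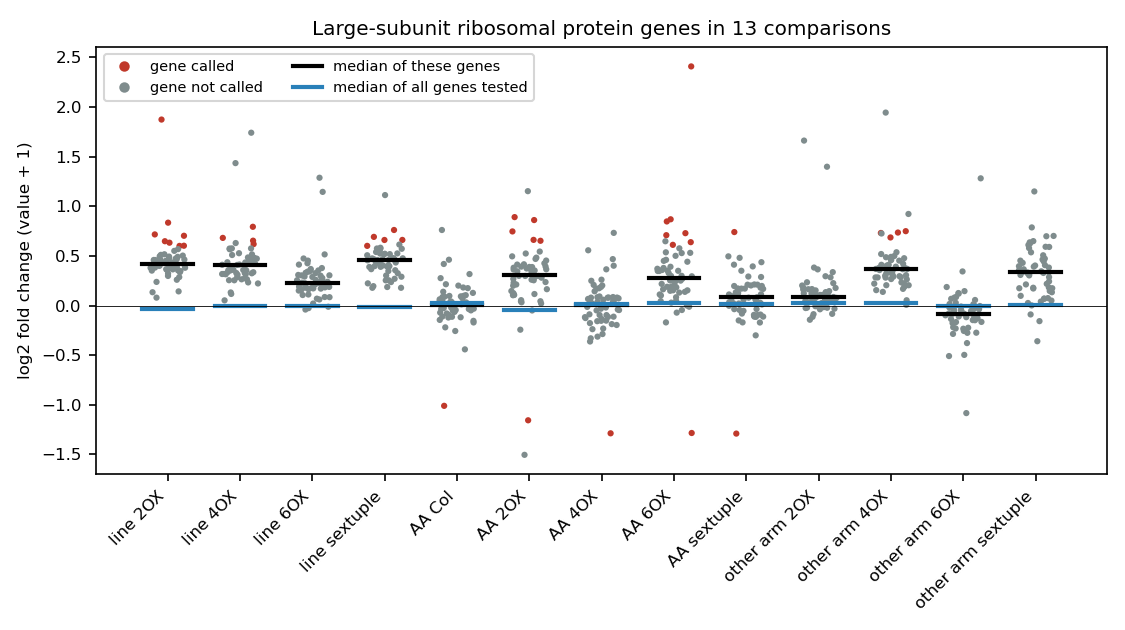
Log2 fold change (y axis, log2 of value + 1) of each listed gene in 13 comparisons (x axis), with red points for genes called at adjusted p under 0.05 and fold over 1.5, black bars for their median and blue bars for the median of all genes tested. "Line" is each line against Col in the line tables, "AA" is AA-headed against CK-headed libraries, and "other arm" is each line against Col in the libraries outside the line tables. Medians run from 0.23 to 0.46 in the line tables and from -0.08 to 0.37 in the other arm, and the lone low red point of each AA column is RPL10C.

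In 2OX, 8 of the 56 genes were called higher (adjusted p under 0.05 by limma over all genes and fold over 1.5) and none lower, where 3.26% of all genes were called higher and 3.44% lower. RPP2D (AT3G44590), a minor gene of the acidic stalk protein P2, led those with a mean of at least 50 normalised counts, with 1745, 1851 and 1367 in 2OX and 838, 975 and 949 in Col. This is a log2 fold change of 0.84 ± 0.13 (SE, adjusted p = 0.00789). RPL9D (AT4G10450), the least abundant L9 gene, had 2834, 2676 and 2030.1 against 1437, 1689 and 1426, a change of 0.72. All 3 libraries of 2OX stood above all 3 of Col for both genes. The others called were AT3G11250 of P0 (0.70), AT4G13170 of L13a (0.65), AT5G60670 of L12 (0.63), RPL14A (0.60), RPP2B (0.60) and the scarce AT3G28500 of P2 (1.87). At the low end were RPL10C (AT1G66580) at 0.08 and AT1G74050 at 0.14, neither past the test. A fit with the mean log2 value of the listed genes taken off each library tests which members leave the shared shift. There RPP2D (0.38, adjusted p = 0.0384) and AT3G28500 (1.42, 0.0453) lay above it and RPL10C below (-0.38, 0.0466), where 1.14% and 26.9% of all genes did. At an unadjusted p under 0.05 in limma, 4 of 56 left the shift, beside 42.9% of all genes. The count of 8 turned to 1 without 2OX replicate 2 or Col replicate 1, 2 without Col replicate 2 or 3 and 23 without 2OX replicate 3, and the 3 genes off the shift to 0 without 2OX replicate 2 or any Col library and 1 without 2OX replicate 1. Over all genes, 1521 calls became 518 without 2OX replicate 2 and 2692 without 2OX replicate 3. Without Col replicates 1, 2 and 3 they became 434, 799 and 945. RPP2D was called whichever library was left out, but with a variance not allowed to follow the level (limma without its trend) none of the 8 was called, nor any listed gene in the other line tables. As to depth, leaving out the shallow 2OX replicate 1 left 7 calls and a median of 0.38.

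In 4OX 4 genes were called higher and none lower, against 2.77% and 2.76% of all genes. RPL7A (AT1G80750), an L7 gene whose coding sequence is only 55.5 to 57.3% identical to the other L7 genes, had 4439, 5437 and 4459 normalised counts in 4OX and 2688, 2829.8 and 2711 in Col. Its change of 0.79 ± 0.10 (adjusted p = 0.0195) was the largest among members with a mean of at least 50, and it lay above the shared shift by 0.35 (adjusted p = 0.0210, 1.2% of all genes above). RPL9D (0.68), AT3G11250 (0.65) and RPL14A (0.62) were the other 3. RPL14A is the smaller L14 gene, with 8877, 10293 and 8704 against 5715, 6455 and 5939. Below the shift, as were 38.4% of all genes, lay RPL10C (-0.39), RPP2A (-0.33) and AT1G74050 (-0.31). Their own changes against Col were 0.05, 0.12 and 0.13. AT1G74050 had 9114, 9069 and 8562 in 4OX and 7896, 8495 and 8008 in Col. The 4 calls fell to 0 without any single Col library and to 1 without 4OX replicate 3. Over all genes, 1288 calls became 2, 2 and 6 without Col replicates 1, 2 and 3 and 270 without 4OX replicate 3. Of the 4 genes off the shift, 0 were left without Col replicate 1 or 2, 1 without Col replicate 3 or 4OX replicate 1 and 2 without 4OX replicate 3. At an unadjusted p under 0.05 in limma, 5 of 56 left the shift, beside 50.5% of all genes.

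In 6OX no listed gene was called by limma, edgeR or DESeq2, and 16 of 56 had an unadjusted p under 0.05 in limma, where 15.4% of all genes did and 0.138% were called higher and 0.0604% lower. The largest values belonged to AT2G40010 of P0, with 366, 521 and 433 against 252, 338 and 331 normalised counts (0.52 ± 0.18, adjusted p = 0.235), and RPL4A (0.47, 0.194). The lowest were RPL10C (-0.04) and RPL10AB (-0.03), and no gene left the shared shift in limma, where 0.328% of all genes lay above it and 5.79% below. At an unadjusted p under 0.05, 2 of 56 left it, beside 28% of all genes. Without 6OX replicate 2 a single gene was called.

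In the sextuple line 5 genes were called higher and none lower (0.76% and 0.768% of all genes). RPP2D led again, with 3039.8, 2323 and 2186 normalised counts against 1339, 1559 and 1515 (0.76 ± 0.13, adjusted p = 0.0262), followed by RPL14A with 9891, 8864 and 9928 against 5601, 6338 and 5807 (0.69). Both had all 3 sextuple libraries above the Col libraries. AT4G16720, the leading L15 gene, had 38510.3, 32411 and 32857 against 20586, 22679.7 and 22178 (0.66), and RPL9D (0.66) and AT3G11250 (0.60) were called as well. RPL10C (0.18) and AT2G40010 (0.18) had the smallest values, and no gene left the shared shift in limma, where 0.237% of all genes lay above it and 43.9% below. At an unadjusted p under 0.05 it was left by 3 of 56, beside 53.3% of all genes. The 5 calls fell to 0 without sextuple replicate 1 or Col replicate 1 or 2, to 2 without sextuple replicate 2, and rose to 10 without sextuple replicate 3. Over all genes, 354 calls became 31, 78 and 724 without sextuple replicates 1, 2 and 3. Without Col replicates 1 and 2 they became 7 and 9.

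The same lines could be set against Col in a second set of libraries, those headed CK in the AA tables, which are in no line table. Both sets are headed CK in one kind of table, and which of them received AA cannot be told from the headings. In 4OX the median was 0.37 with all 56 genes above 0, in 2OX 0.08 with 43 above 0 and in 6OX -0.08 with 13 above 0, beside all-gene medians of 0.00 to 0.03. Of all genes 52.6%, 52.6% and 49.8% were above 0 there. The sextuple line had a median of 0.33 with 53 of 56 above 0 (50.5% of all genes), but replicate 1 or 3 decided its size, since the median was 0.58 without replicate 1 and 0.07 without replicate 3. In 2OX it was 0.03 without 2OX replicate 2, and in 6OX -0.15 without 6OX replicate 2 and -0.04 without replicate 3. The line libraries lay above Col without overlap for 11, 44 and 1 genes in the overexpressors 2OX, 4OX and 6OX and for 2 in sextuple, beside 20.7%, 16.3%, 10.8% and 10.8% of all genes. Below Col without overlap lay 6 genes in 6OX and none in the other lines, beside 9.13% of all genes in 6OX and 19.3%, 16.4% and 10.7% in 2OX, 4OX and sextuple. RPL3B (-0.51, adjusted p = 0.136) and AT3G11250 (-0.50, 0.138) had the lowest values of 6OX. The 4 comparisons share the 3 CK-headed Col libraries, which were shallower and richer in ribosomal RNA than the AA-headed Col libraries, and the part of this in the result was not tested.

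Calls in this second set were made only in 4OX, where 4 genes were higher (4.01% of all genes higher, 4.95% lower). RPL14A led with 6305, 4957 and 5401 normalised counts against 3224, 3418 and 3219 (0.75 ± 0.12, adjusted p = 0.00139), and RPL10B (AT1G26910), the minor L10 gene, had 1036, 999 and 939 against 634, 546 and 606 (0.74). RPL9D had 2403, 2289 and 2196 against 1311, 1456 and 1380.1 (0.73) and AT5G60670 a change of 0.69. In each of the 4 genes every 4OX library exceeded every Col library. RPL14A (0.35) and RPL9D (0.33) lay above the shared shift and AT1G74050 (-0.35) and RPL9C (-0.40) below (1.97% and 34.2% of all genes). These 4 fell to 0 without 4OX replicate 1 or 3 or Col replicate 2 or 3 and to 1 without 4OX replicate 2. In 2OX, 6OX and sextuple no listed gene was called by limma, edgeR or DESeq2, with 4, 3 and 6 of 56 at an unadjusted p under 0.05 in limma. Of all genes, 35.5%, 14.4% and 16.4% had such a p, 8.28%, 1.56% and 1.17% were called higher and 7.33%, 0.289% and 0.742% lower. No listed gene left the shared shift in these 3 lines in limma, where 7.48%, 2.13% and 0.0629% of all genes lay above it and 15.7%, 0.167% and 0.324% below. At an unadjusted p under 0.05 the counts were 0, 2 and 1 of 56, beside 35.8%, 13.9% and 11.7% of all genes. Without the trend in limma the 4 calls of 4OX were lost too. Leaving out Col replicate 1 gave 1 call in 2OX, and leaving out sextuple replicate 1 gave 6 in the sextuple line.

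Between AA-headed and CK-headed libraries of 1 genotype the median of the listed genes ranged from near 0 to 0.31. Their median log2 fold change was 0.00 in wild type, 0.31, 0.00 and 0.28 in the overexpressors 2OX, 4OX and 6OX and 0.08 in sextuple, against all-gene medians of -0.04 to 0.02. Above 0 were 29 of 56 genes in wild type, then 52 (2OX), 30 of 57 (4OX), 51 (6OX) and 38 (sextuple), beside 52.1%, 47.4%, 51%, 51.4% and 51.3% of all genes. These medians depend on the scaling. With library totals in place of median ratios the all-gene medians became 0.26, 0.15, 0.27, 0.29 and 0.31, and the listed genes lay -0.02, 0.36, 0.00, 0.27 and 0.07 from them. In the sextuple line the median was -0.17 without CK-headed replicate 1 and 0.32 without replicate 3, and in 6OX it was 0.19 without AA-headed replicate 2. The 5 AA tables share no libraries with each other.

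RPL10C was lower in the AA-headed libraries of every genotype. It codes for L10, a protein that joins the subunit late in its maturation. In Col, the AA-headed libraries held 6913, 6854 and 5813 normalised counts and the CK-headed ones 14189.7, 12432 and 12747. In 2OX they held 6348, 5756 and 4785 against 11921, 13079 and 12395, and in 4OX 9291, 10465 and 8727 against 24859, 25885 and 19144. In 6OX the values were 7094, 8274 and 5960.0 against 17050.3, 20199 and 14650.1, and in the sextuple line 9701, 7972 and 9934 against 18145, 22434 and 27561. In all 5 genotypes each AA-headed library was below each CK-headed one. In the same order the log2 fold changes were -1.01 ± 0.12, -1.16 ± 0.14, -1.29 ± 0.15, -1.28 ± 0.20 and -1.29 ± 0.22 (SE), with limma adjusted p of 0.000349, 0.000169, 0.000404, 0.00117 and 0.00231. RPL10C was the only listed gene called lower in any AA table, where 7.81%, 14.1%, 12.9%, 13.7% and 13.4% of all genes were called lower, and it stayed called under all 13 alternatives in each of the 5. Read by the line tables' headings it would be called higher instead. Off the shared shift it stood at -1.02, -1.43, -1.29, -1.60 and -1.37.

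Neither of its paralogs passed the test in any AA table. RPL10A, known in Arabidopsis as a target of the antiviral receptor kinase NIK1, had 20621, 22588 and 21099.9 in AA-headed and 21793, 21899.9 and 22126 in CK-headed Col libraries (-0.03 ± 0.13, adjusted p = 0.878), and -0.20 to 0.12 over the 5 AA tables. RPL10B gave -0.11 to 0.29, with overlap between the groups in every table. The make-up of the L10 transcript pool can be read per length. Over 15 CK-headed libraries RPL10C held 34.0 to 42.1% of it (median 38.7%), and over 15 AA-headed libraries 20.0 to 26.2% (median 21.2%). RPL10A held 56.1 to 63.2% and 71.2 to 77.0%. Neither pair of ranges overlaps, and among the 56 genes the only other whose share did not overlap was AT5G22440 of L10a, with 9.13 to 11.5% in CK-headed and 12.2 to 15.3% in AA-headed libraries. In the line comparisons RPL10C had the lowest value of the members with a mean of at least 50 in each table, from -0.04 in 6OX to 0.18 in the sextuple line, none past the test. The summed level of 5 root markers also differed without overlap between the headings, 637 to 1015 against 1410 to 2571 scaled reads, and its part in the values of RPL10C was not tested.

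**Figure D3:**
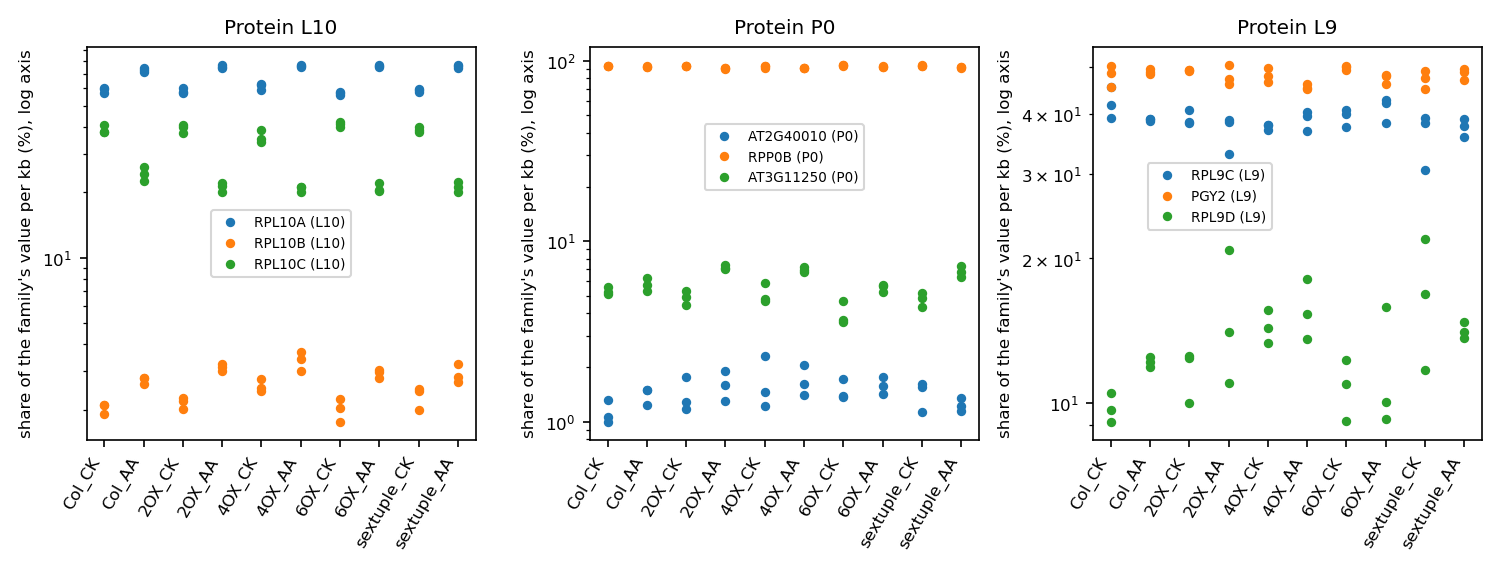
Share of each paralog in its family's reads per kb (y axis, percent, log axis) for L10, P0 and L9 in each library (points), by group (x axis, groups named by the AA tables' headings, 3 libraries each). RPL10C sits at 34.0 to 42.1% in the CK groups and 20.0 to 26.2% in the AA groups, and RPP0B holds over 90% of P0 throughout.

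In Col no other listed gene was called, with 10.4% of all genes called higher. AT5G60670, a minor gene of the stalk-base protein L12, lay above the shared shift by 0.45 (adjusted p = 0.0358), with 2059, 2286 and 2064 against 1296, 1664 and 1721 normalised counts. RPL7D (AT3G13580) lay below it by -0.45 (adjusted p = 0.0123), with 2086, 2484 and 2066 against 2963, 2852 and 3170.3. Without AA-headed replicate 3, 1 of the 3 genes stayed off the shift, and without CK-headed replicate 1 a second gene was called. All genes left the shift in 11.8% (above) and 10.6% (below) of cases.

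In 2OX 5 genes were called higher (11% of all genes). AT3G11250, a minor gene of the stalk base P0, had 1157, 1061 and 930.0 against 518, 643 and 535 (0.89 ± 0.13, adjusted p = 0.000688), and RPP2D 1559, 1606 and 1208 against 775, 958 and 676 (0.86). Both had groups apart from each other. RPL3B (AT1G61580), the minor gene of L3, a protein of the peptidyl transferase centre, had 1425, 1581 and 1395 against 687, 1102 and 876 (0.75), and AT5G22440 (0.66) and AT5G60670 (0.65) were called too. Above the shared shift lay AT3G11250 (0.62), RPP2D (0.59), AT5G22440 (0.39) and AT5G60670 (0.38), and below it RPL10C and RPL7D (-0.51), where 6.2% and 23.1% of all genes did. The 6 calls became 14 without AA-headed replicate 3, and 4 without the shallow AA-headed replicate 1. The 6 genes off the shift became 1 without CK-headed replicate 1 and 3 without CK-headed replicate 3 or AA-headed replicate 2.

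In 4OX only RPL10C was called, with 12.8% of all genes called higher. Above the shared shift, as were 12.5% of all genes, lay AT3G11250 with 1751, 1729 and 1745 against 1399, 1117 and 1059 (0.56), RPL3B (0.47) and AT5G22440 (0.40). Below it (15.4% of all genes) lay RPL10C and RPL7D (-0.36). The 5 became 1 without CK-headed replicate 2, 2 without AA-headed replicate 1 or 3 and 3 without CK-headed replicate 1, and without CK-headed replicate 1 a second gene was called.

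In 6OX 7 genes were called higher (12.6% of all genes). RPL3B led with 1245, 1515 and 1441 against 735, 791 and 765 (0.87 ± 0.13, adjusted p = 0.00109), ahead of AT3G11250 with 1021, 1203 and 1014 against 553, 579.6 and 664 (0.85). Both groups of libraries were apart in these genes. AT5G22440 (0.73), RPP2D (0.71), AT4G13170 (0.64), AT5G60670 (0.61) and the scarce AT3G51190 were the others. RPL3B (0.56), AT3G11250 (0.53) and AT5G22440 (0.42) lay above the shift (6.67% of all genes) and RPL10C below (25.9%). The 8 calls became 5 without CK-headed replicate 1 and 4 without CK-headed replicate 3 or AA-headed replicate 1, and the 4 genes off the shift 1 without CK-headed replicate 1 and 2 without AA-headed replicate 1.

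In the sextuple line AT3G11250 was the gene called higher (12.6% of all genes), with 1539, 1507 and 1423 against 653, 940.5 and 1149 (0.74 ± 0.20, adjusted p = 0.0229). Its CK-headed values were spread as the whole set was in those 3 libraries. The call was lost on leaving out any of the libraries but CK-headed replicate 3, without which 5 genes were called. RPL10C was the sole gene off the shared shift (8.03% of all genes below, 4.68% above), joined by a second without CK-headed replicate 1.

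Whether a line's distance from Col differed between the AA-headed and CK-headed libraries was tested as an interaction over 12 libraries. A single listed gene passed at an adjusted p under 0.05, AT3G11250 in 2OX, whose line effect was higher in AA-headed libraries by 0.82 ± 0.18 (SE, adjusted p = 0.0208), where 5.38% of all genes passed. Its 2OX libraries held 1295, 1222 and 1053 against 676, 699 and 815 in Col in the line table, and 549, 687 and 572 against 589, 665 and 739 in the other libraries. Thus 2OX stood above Col in the first set, and the groups overlapped in the second. The call was lost without replicate 1 (adjusted p = 0.0901) or replicate 2 (0.33) of each group. In 4OX, 6OX and sextuple the difference for AT3G11250 was 0.48, 0.75 and 0.65 (adjusted p = 0.251, 0.103 and 0.217). No listed gene passed in these 3 lines in limma, where 0.426%, 0.0044% and 0.814% of all genes did. At an unadjusted p under 0.05 there were 2, 16 and 3 of 56 in these lines, beside 12.9%, 13.5% and 15.5% of all genes, and 11 of 56 in 2OX, beside 21.5%. The median difference over the listed genes was 0.34, 0.00, 0.23 and 0.06 in 2OX, 4OX, 6OX and sextuple, and -0.07, -0.04, -0.05 and -0.05 over all genes.

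Family by family, the range between paralogs was widest in L10, with a mean of 0.68 in log2 fold change over the 13 comparisons, then in P0 (0.48), P2 (0.42), L9 (0.39) and L7 (0.36). The range, highest less lowest, tends to grow with the number of genes compared. These were 3 in L10, P0, P2 and L9 and 4 in L7. In P0 the dominant RPP0B stayed near the shared shift, as in 2OX with 15509, 14754 and 13278 AA-headed against 11868, 12290.0 and 11196 CK-headed (0.30 ± 0.13, adjusted p = 0.116), while AT3G11250 in the same libraries rose by 0.89. RPP0B ranged over -0.02 to 0.33 and AT3G11250 over 0.11 to 0.89 in the 5 AA tables. AT2G40010, the scarcest P0 gene, ranged over 0.03 to 0.53 and passed no test. A lncRNA on the opposite strand overlaps 1185 bases of AT2G40010. AT3G11250 remained a minor part of the P0 pool, with 3.54 to 5.89% in CK-headed and 5.24 to 7.37% in AA-headed libraries, ranges that overlapped.

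In P2 the minor gene RPP2D had larger values than the abundant pair in the line tables. There RPP2D gave 0.29 to 0.84, RPP2B 0.19 to 0.60 and RPP2A 0.02 to 0.35. In the second set of 6OX libraries RPP2D had the lowest value of these genes, -0.28. RPP2A in 4OX had 12426, 12609 and 12193 against 11296, 11943 and 11087 in Col, apart by a small margin, and the share of RPP2D in P2 was 4.74 to 6.53% in CK-headed and 6.10 to 8.76% in AA-headed libraries. The fourth P2 gene, AT3G28500, was scarce. Its line 2OX values were 47.4, 46.9 and 25.5 against 9.30, 11.5 and 8.69 in Col, and among the CK-headed Col libraries its lower values were 2.22 and 2.19 and the highest was 29.96, so that a single library carried most of that group.

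In L9, RPL9C and PGY2, known from leaf polarity mutants, cannot be separated with confidence by their reads. RPL9C had 1 low library in 2OX (2944, 4857 and 4653 against 3063, 3551 and 2926 in Col), the shallow replicate 1, and PGY2 had 4057, 5807 and 6016 against 3880.3, 4371 and 3573. RPL9D, which is 80.0 and 80.3% identical to them, had the largest L9 values in the line tables of 2OX, 4OX and sextuple (0.72, 0.68 and 0.66) and the smallest in 6OX (0.26). RPL9C gave 0.33 to 0.43 and PGY2 0.22 to 0.43 there. In the second set of libraries the sextuple line had 1197, 1974 and 2977 for RPL9D and 2630.2, 2938 and 2732 for RPL9C, against 1187, 1323 and 1256 and 2911, 3733 and 4098 in Col. RPL9D thus varied with the replicate there and RPL9C did not, and neither passed the test (0.61 and -0.36). RPL9D held 9.13 to 21.9% of the L9 pool over the 30 libraries.

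In L7 the AA tables set RPL7D apart. It had values of -0.44 to -0.17, while the divergent RPL7A gave -0.05 to 0.53. The AA-headed libraries of RPL7D lay below the CK-headed ones without overlap in Col, 2OX, 4OX and sextuple. So did 5, 2, 6 and 2 of the listed genes, RPL7D among them, and 19.6%, 25.2%, 24.8% and 21.8% of all genes. RPL7D passed an adjusted p under 0.05 in Col (-0.44, 0.0132) and 4OX (-0.36, 0.0461), short of the fold of 1.5. RPL7B and RPL7C, the abundant pair, gave -0.05 to 0.32 and -0.23 to 0.02.

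**Figure D4:**
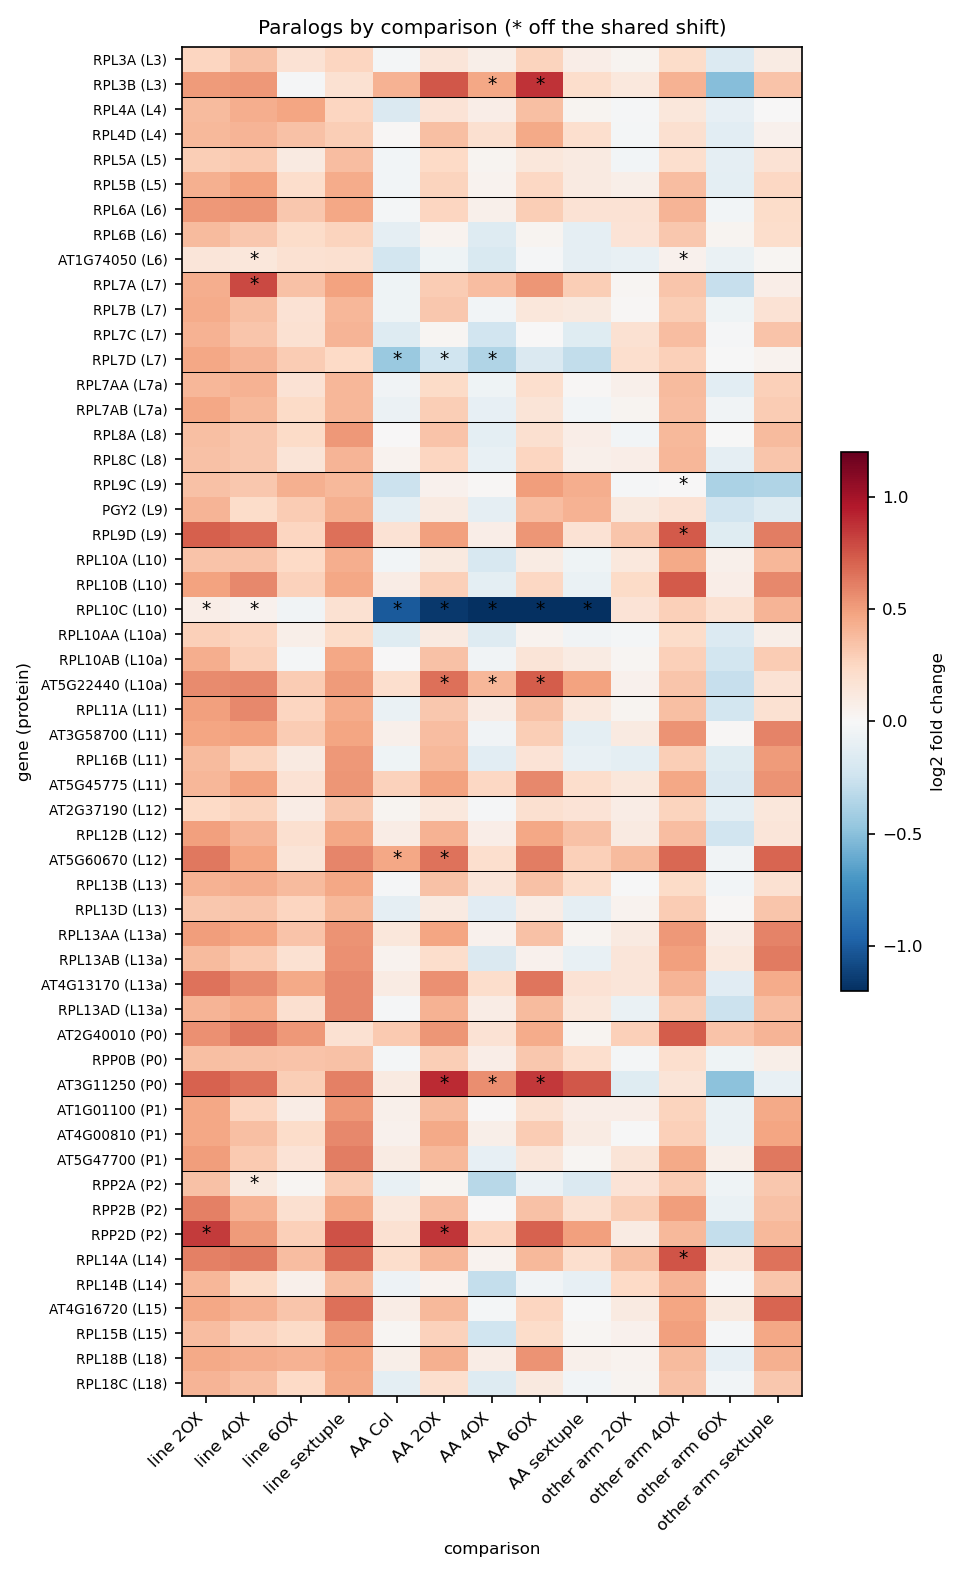
Log2 fold change (colour) of the 54 listed genes with a mean of at least 50 in every comparison (rows, grouped by protein) in 13 comparisons (columns, named as in the plot of the shared shift), with a star where a gene left the shared shift at adjusted p under 0.05. RPL10C is dark blue in the 5 AA columns, and the line columns are red nearly throughout, with medians of 0.23 to 0.46.

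The other families had smaller mean ranges, many of them with only 2 genes compared. In L3 the abundant RPL3A stayed within -0.02 to 0.27 over the AA tables, where RPL3B gave 0.21 to 0.87. Of the L4 genes, which line the exit tunnel, RPL4A gave 0.26 to 0.47 and RPL4D 0.29 to 0.41 in the line tables, and of the L5 genes RPL5A gave 0.11 to 0.37 and RPL5B 0.21 to 0.49. None of these 4 genes was called. L6 held a steady member in AT1G74050, with 0.13 to 0.20 in the line tables, beside 0.33 to 0.53 for RPL6A and 0.22 to 0.38 for RPL6B, the tandem neighbour of AT1G74050. The 2 L7a genes, which differ from L7, had the smallest mean range of all families, 0.0415, and gave 0.17 to 0.42 (RPL7AA) and 0.23 to 0.46 (RPL7AB). For L8, a protein close to the peptidyl transferase centre, RPL8A gave 0.23 to 0.52 and RPL8C 0.15 to 0.41.

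Among the L10a genes AT5G22440 was the one called, from 3364, 3633 and 3329 AA-headed against 2119.7, 2289 and 1837 CK-headed in 6OX to 2393, 2671 and 2464 against 2158, 2159 and 2221 in Col. The groups were apart in both genotypes, and only the first was called. RPL10AA gave -0.15 to 0.10 and RPL10AB -0.04 to 0.36 over the AA tables. The L11 genes RPL16B (an older name for an L11 gene), AT5G45775, AT3G58700 and RPL11A gave 0.11 to 0.52, 0.17 to 0.53, 0.30 to 0.48 and 0.26 to 0.58 in the line tables, with no call. In L12, AT5G60670 gave 0.15 to 0.63, RPL12B 0.19 to 0.49 and AT2G37190 0.09 to 0.33. AT5G60670 is the least abundant of the 3, at 13.8% of the L12 pool.

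L13 was nearly even, with 0.38 to 0.46 for RPL13B and 0.26 to 0.39 for RPL13D in the line tables. In L13a, AT4G13170, at 4.68% of its pool, gave 0.45 to 0.65, against 0.34 to 0.54, 0.18 to 0.55 and 0.19 to 0.57 for RPL13AA, RPL13AB and RPL13AD. The P1 genes AT1G01100, AT4G00810 and AT5G47700 gave 0.09 to 0.52, 0.22 to 0.58 and 0.17 to 0.62. RPL14A gave 0.37 to 0.69 and the far more abundant RPL14B 0.06 to 0.40. In L15, AT4G16720 gave 0.33 to 0.66 and RPL15B 0.23 to 0.52, and in L18 RPL18B gave 0.41 to 0.47 and RPL18C 0.24 to 0.46.

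The scarce genes rested on few reads. AT3G51190 of L8 was called higher in the AA-headed libraries of 6OX on 3.21, 5.48 and 14.2 against 0, 1.76 and 0 normalised counts, a few reads per library. In the 2OX line table AT3G51190 had 0, 5.58 and 4.78 against 1.24, 2.30 and 2.90, which the depth could not tell apart. AT3G48960 of L13 was tested only in the AA table of 4OX, with 1.92, 0 and 0 in AA-headed against 4.58, 0 and 0 in CK-headed libraries.

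The rest of the large subunit had medians close to these. Over the other large-subunit proteins (71 listed genes) the median was 0.45, 0.39, 0.22 and 0.51 in 2OX, 4OX, 6OX and sextuple in the line tables. There 4, 3, 0 and 15 of 69 were called higher and none lower. Of all genes 3.26%, 2.77%, 0.138% and 0.76% were called higher and 3.44%, 2.76%, 0.0604% and 0.768% lower. Between AA-headed and CK-headed libraries the median of these proteins was 0.03, 0.35, -0.02, 0.31 and 0.09 in Col, 2OX, 4OX, 6OX and sextuple. In the second set of libraries it was 0.05, 0.37, -0.13 and 0.38 in the lines. Ribosome assembly factors (16 genes) had medians of 0.50, 0.69, 0.34 and 0.34 in the line tables. Of these factors 4, 10, 0 and 1 were called higher, beside the same shares of all genes. Between AA-headed and CK-headed libraries their medians were -0.04, 0.16, 0.07, 0.29 and -0.03. Both lists were chosen with earlier results of these data known, and counts of genes are no test of a list.

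Markers of tissues differed beside these genes. Leaf markers (5 genes) had medians of -0.75, -1.12 and -0.38 in the overexpressors 2OX, 4OX and 6OX and 0.04 in sextuple in the line tables. Of them 3, 1, 0 and 0 were called lower, beside 3.44%, 2.76%, 0.0604% and 0.768% of all genes. In the second set of libraries 5 of 5 were called lower in 2OX and 4 of 5 in 4OX (7.33% and 4.95% of all genes). Only 1 of 5 was called lower in 6OX and 1 of 5 in sextuple there (0.289% and 0.742% of all genes). The summed level of the leaf markers was 166498 to 617243 scaled reads in CK-headed and 70756 to 469295 in AA-headed libraries. Between AA-headed and CK-headed libraries, root markers (5 genes) had medians of 1.57, 1.43, 1.45, 1.98 and 1.16, with 3, 3, 3, 3 and 4 called higher. Of all genes 10.4%, 11%, 12.8%, 12.6% and 12.6% were. In 4OX, 6OX and sextuple 1 of the 5 lay lower without overlap, and in 2OX 4 of 5 were above 0. Of the 5 root markers, 1 was at 0 in at least 1 library. Markers of dividing cells (9 genes) had medians of 0.26, 0.10, -0.02 and 0.18 in the line tables and 0.41, 0.36, 0.45, -0.06 and 0.76 in the AA tables. The part of these differences in tissue markers in the changes of the listed genes was not tested.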

How the data were processed

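Each of the 9 tables holds 6 libraries. Per the labels, reads were aligned with Bowtie 0.12.2 to TAIR10, and the use of strand is not given in the sources used here. The deposited signal values are read counts divided by a size factor for each library, which the authors set within each table, so values are compared within a table. Whole reads were recovered for 100.0% of 1266084 values (within 0.001 reads), and all genes of a table entered each fit. The authors' columns of mean, log2 fold change, standard error, test statistic, p-value and adjusted p-value were not used.

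Values were tested as log2(value + 1) with limma 3.58.1 (variance trend, two-sided, genes with a mean of at least 1, Benjamini-Hochberg adjustment over all genes). Calls required an adjusted p under 0.05 together with a fold over 1.5. Fold changes on this scale understate those of low genes. For libraries outside the line tables, and for levels over 30 libraries, the recovered reads were rescaled together by median ratios. The shared shift was removed by taking the mean log2 value of the listed genes off each library before fitting. The adjustment ran over all genes, many of which do not share the shift and so pass. Its adjusted p is therefore not an error rate among the listed genes. At an unadjusted p under 0.05, 5, 8, 7, 13 and 2 listed genes left it in the AA tables (Col, 2OX, 4OX, 6OX, sextuple). All genes did in 35%, 40.4%, 39.6%, 43.4% and 25.6% of cases. In the second set of 4OX it was 5 of 56, beside 45.8%. Alternatives were a pseudocount of 8, no filter, scaling by library totals, edgeR 4.0.16, DESeq2 1.42.0, limma without trend, the replicate number as a block, and leaving out each library (R 4.3.3, Python 3.11.15). The steps were run on simulated counts with known changes and the same dispersion for every gene. These lacked the spread seen between the CK-headed sextuple libraries, so they cannot show how the steps behave under it.

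Named genes were, per comparison, the 2 highest and 2 lowest with a mean of at least 50 and every called gene where at most 6 were called. To these came the genes most often off the shared shift, all genes of the 5 families with the widest range, and genes under the filter in any table. Members and lists were chosen with earlier results of these data known. The limma p-values rest on the spread between the 3 libraries of a group, with each gene's variance drawn towards a trend over all genes. Depth of 2.56 to 39.1 M reads sets the precision, least for the scarce genes.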

Additional observations from a re-analysis of the deposited data

Results flagged for a closer look

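The effect of a line was compared between AA-headed and CK-headed libraries, and 1 listed gene differed by the test of that difference. For the P0 gene AT3G11250 in 2OX the line effect was 0.82 higher on the log2 scale in AA-headed libraries (SE 0.18, limma adjusted p = 0.0208). It was 0.80 in edgeR (adjusted p = 0.0148), and the adjusted p was 0.0686 in limma without the trend and between 0.0334 and 0.33 on leaving out a replicate of each group.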

How the results depend on the processing

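No called log2 fold change turned its sign under the 13 alternatives (7 other settings and 6 left-out libraries), and of 39 calls 10 were kept under all of them. These were RPL10C in the 5 AA tables, AT3G11250 and RPP2D in the AA table of 2OX, and RPL3B, AT3G11250 and AT5G22440 in that of 6OX. Medians of the listed genes changed sign over the alternatives only in the AA tables of Col, 4OX and sextuple.

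Leaving out a library in turn, calls in the line tables ranged over 1 to 23 (8 with all libraries) in 2OX, 0 to 6 (4) in 4OX, 0 to 1 (0) in 6OX and 0 to 10 (5) in sextuple. All genes gave 434 to 2692 (1521), 2 to 1233 (1288), 6 to 708 (46) and 7 to 724 (354) calls. In the AA tables calls of listed genes ranged over 1 to 2 (1) in Col, 4 to 14 (6) in 2OX, 1 to 2 (1) in 4OX, 4 to 10 (8) in 6OX and 1 to 5 (2) in sextuple. All genes gave 2913 to 4281 (4155), 4617 to 6403 (5716), 4667 to 6725 (5988), 4617 to 5739 (6055) and 3883 to 7250 (6006). In the second set of libraries listed genes gave 0 to 1 (0) in 2OX and 0 to 6 (0) in sextuple. All genes gave 2452 to 4109 (3493) and 6 to 1042 (426) there. Genes off the shared shift ranged in the line tables over 0 to 4 (3) in 2OX, 0 to 4 (4) in 4OX and 0 to 1 (0) in sextuple. In the AA tables they were 1 to 4 (3), 1 to 7 (6), 1 to 5 (5), 1 to 3 (4) and 1 to 2 (1) in wild type, 2OX, 4OX, 6OX and sextuple. In the second set they were 0 to 1 (0) in 2OX, 0 to 3 (4) in 4OX and 0 to 2 (0) in sextuple. Genes with a different line effect ranged over 0 to 3 (1) in 2OX and 0 to 1 (0) in sextuple.

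Limma without the trend left 0 calls in the 2OX, 4OX and sextuple line tables and 0 in 4OX of the second set. It left 5 in the AA table of 6OX and 1 in that of sextuple. All genes kept 184, 7 and 6 calls in those line tables and 130 in 4OX of the second set. They kept 5469 and 5321 in those AA tables. Without the trend 0 listed genes were off the shift in the line tables of 2OX and 4OX and 0 in 4OX of the second set. There were 1, 3 and 2 in the AA tables of Col, 2OX and 4OX, and 0 different line effects in 2OX. Scaling by library totals gave 11 calls for the 4OX line and 10 for 4OX in the second set. All genes called went from 1288 to 1450 and from 2002 to 2057 there. In the AA tables of wild type, 2OX, 4OX, 6OX and sextuple it gave 3, 19, 5, 25 and 6 listed genes. All genes called there were 5194, 6310, 7138, 7328 and 7284, from 4155, 5716, 5988, 6055 and 6006. With this scaling the medians of the listed genes were 0.23, 0.51, 0.27, 0.56 and 0.38 in the AA tables, in the same order. They were 0.20 and 0.47 in 2OX and 4OX of the second set. In the AA table of sextuple the median of 0.08 was 0.05 in edgeR and 0.03 in DESeq2. DESeq2 called 7 listed genes in the 4OX line (2162 of all genes). EdgeR called 10 in the sextuple line (382 of all genes) and 2 different line effects in 2OX. Same-numbered libraries did not deviate together (3 of 39 correlations over 0.1), so the numbers were not read as pairs. With the replicate block the calls of the sextuple line went from 5 to 0, and from 354 to 8 over all genes. No other count of the listed genes moved by over 1.5 times. The causes were not tested.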
